A study of Mus musculus with 4 samples.

Results

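The 32 collagen genes described here were the rows of the 4 count matrices whose gene symbol was on a list of collagen chains, and all 32 were found among the 55450 genes of the files. The mouse mid-colon was measured by single-cell RNA sequencing in specific-pathogen-free mice aged 7 weeks. The control group drank clean water and the DSS group drank 3% dextran sulfate sodium for 2 days, with 2 libraries in each group. Dextran sulfate sodium, a sulfated sugar polymer, is toxic to the epithelium of the colon. The labels give no strain, sex or genotype, and they do not say that libraries of 1 group came from separate mice, so the p-values measure the spread between libraries, which may be technical.

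Collagens are triple-helical proteins of the extracellular matrix, each built from 3 chains. The fibrillar types I, III and V give tissue its tensile strength, and type IV forms the network of basement membranes under epithelium and around vessels, muscle and glia. Type VI forms beaded filaments beside cells, types XII, XIV and XVI sit on fibrils, and types XV and XVIII lie in basement membranes, where the end of type XVIII can be released as endostatin. Types XIII, XVII, XXIII and XXV span the cell membrane. In the gut wall fibroblasts are known as the main makers of fibrillar collagen, and muscle, glia and endothelium build basement membranes of their own.

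The libraries held 101051573 and 101834659 UMIs (unique molecular identifiers, a count of captured mRNA molecules) in control and 108941875 and 109472082 in DSS, and 9049 to 11591 cells per library were kept. From 26 to 34 cell barcodes were shared between any 2 libraries. Cells were grouped without the use of any collagen gene, and a class name stands for cells that are like that type by its markers. A level is in CPM, the UMIs of a gene per 1e6 UMIs of a class in a library, and values are given for control 1, control 2, DSS 1 and DSS 2 in that order. CPM were not scaled by gene length, since the kit counts the 3-prime ends of transcripts, so levels are compared between classes and not between genes. Blood endothelial cells, lymphatic endothelial cells, interstitial cells of Cajal, enteric neurons and the inflamed fibroblasts (led by Ptx3, Tnfaip6 and Has1) had under 30 cells in at least 1 library and were not tested. The inflamed fibroblasts came mostly from control 2 and DSS 2, with 381 and 2227 cells against 10 and 56 in control 1 and DSS 1.

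Free RNA in droplets can add UMIs to cells that do not express a gene. In pooled T cells and B cells, which should lack collagen mRNA, the 32 genes made up 0.0471%, 0.0293%, 0.0798% and 0.0498% of UMIs. A gene was called held by a class when its level was at least 10 CPM and at least 5-fold that of these lymphocytes in every library. Of 512 pairs of gene and class, 130 were held, over 16 classes and subsets with at least 30 cells in each library, and 25 of the 32 genes were held in at least 1 class. Fibroblasts held 19 of the 32, telocytes 18, enteric glia 16, smooth muscle 15 and mural cells 5. Telocytes are subepithelial stromal cells that secrete BMP and Wnt ligands, and mural cells surround vessels. No gene was held in absorptive colonocytes, epithelial progenitors, goblet cells or any tested immune class. As a share of all UMIs, the 32 genes made up 3.32%, 2.96%, 3.25% and 2.45% in Pi16 fibroblasts, 2.30%, 2.24%, 1.85% and 1.61% in Adamdec1 fibroblasts and 2.11%, 2.11%, 2.32% and 2.02% in telocytes. In enteric glia they made up 0.541%, 0.720%, 0.788% and 0.818%, and in absorptive colonocytes 0.00751% to 0.0125%.

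**Figure D1:**
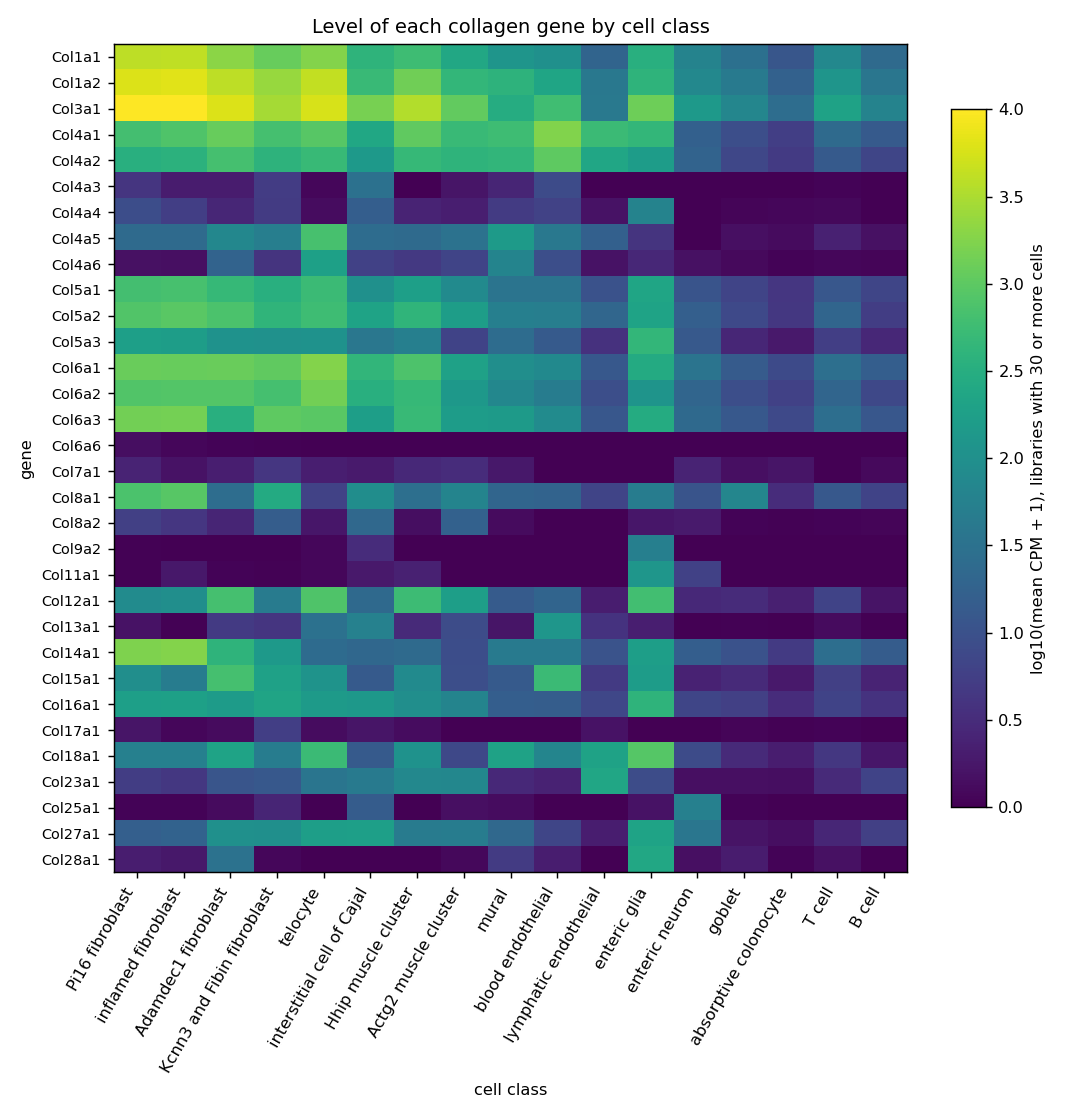
Level of each of the 32 collagen genes (vertical axis) in 17 cell classes (horizontal axis), as colour on the scale log10(mean CPM + 1) over the libraries with 30 or more cells of the class. Fibrillar genes are brightest in the fibroblast columns, Col4a5 and Col4a6 in telocytes, and Col11a1 and Col28a1 in enteric glia.

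The genes of type I and III collagen lay highest in fibroblasts. Col1a1, the alpha-1 chain of type I, was at 3755, 4347, 4639 and 2952 CPM in Pi16 fibroblasts, a subset that elsewhere lies around vessels and in the outer wall. It stood at 1949, 2523, 2068 and 1433 CPM in Adamdec1 fibroblasts and at 965, 1129, 1716 and 964 CPM in the subset marked by Kcnn3 and Fibin. In each library the order was Pi16 above Adamdec1 above Kcnn3 and Fibin fibroblasts. Telocytes had 1520, 2195, 1970 and 1561 CPM, and the muscle cluster led by Hhip had 448, 586, 626 and 600.4 CPM. Mural cells, at 132, 109.6, 115 and 119 CPM, were above the lymphocytes in each library, at 48.2, 43.3, 105 and 53.2 CPM. Of all Col1a1 UMIs in kept cells, fibroblasts held 80.2% to 89.6% over the 4 libraries.

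Col1a2, the alpha-2 chain of type I, followed the same order among the same fibroblast subsets, with 6387, 6328, 7060 and 4797 CPM in Pi16 fibroblasts. Telocytes had 3916, 4819, 4587 and 4144 CPM of Col1a2. The ratio of Col1a2 to Col1a1 UMIs differed between classes. It was 1.46 to 1.70 in Pi16 fibroblasts, 2.20 to 2.65 in telocytes, 2.22 to 2.62 in the Hhip muscle cluster and 2.96 to 3.43 in mural cells. In the lymphocytes it was 1.48 to 1.87, a range that overlaps that of Pi16 fibroblasts and lies below every mural library. Col3a1, the single chain of type III, was at 13740, 9417, 11510 and 9164 CPM in Pi16 fibroblasts and 3454, 3190, 3502 and 3494 CPM in the Hhip muscle cluster. Its ratio to Col1a1 was 5.45 to 7.70 in that muscle cluster and 2.17 to 3.66 in Pi16 fibroblasts, with no overlap between the classes.

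Type V collagen starts and limits fibril growth. Its alpha-1 gene Col5a1 was at 651, 683, 655 and 550.5 CPM in Pi16 fibroblasts and 207, 174, 266 and 239 CPM in enteric glia. Col5a2 was at 836, 869, 896 and 698 and 145, 276, 188 and 228 CPM in the same classes. Col5a3, a further type V chain, went the other way. It was higher in enteric glia, at 337, 414, 559 and 463 CPM, than in Pi16 fibroblasts, at 226, 138, 247 and 97.1 CPM, in every library. The ratio of Col5a3 to Col5a1 was 1.63 to 2.38 in glia and 0.176 to 0.377 in Pi16 fibroblasts. Within fibroblasts as a whole Col5a3 was at 175, 124, 210 and 83.4 CPM, with DSS libraries both above and below the controls.

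Type VI collagen, made from Col6a1, Col6a2 and Col6a3, was led by telocytes for the first 2 chains. Col6a1 was at 1760, 1787, 2013 and 1762 CPM in telocytes and 1236, 1307, 1179 and 1133 CPM in Pi16 fibroblasts, and Col6a2 at 1205, 1415, 1597 and 1367 and 856, 899, 818 and 694 CPM. Telocytes lay above Pi16 fibroblasts in each library for both genes. Col6a3, the long chain, was at 1481, 1429, 1550 and 1161 CPM in Pi16 fibroblasts and only 365, 377, 231 and 376 CPM in Adamdec1 fibroblasts. The ratio of Col6a3 to Col6a1 was 1.03 to 1.31 in the former subset and 0.221 to 0.329 in the latter.

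The fibril-associated and short-chain collagens split the fibroblast subsets. Col14a1, which coats fibrils, was at 1604, 1941, 1706 and 1381 CPM in Pi16 fibroblasts, 414, 522, 445 and 232 CPM in Adamdec1 fibroblasts and 13, 20.2, 42.7 and 20.6 CPM in telocytes. Col12a1, of a related fibril-coating type, was instead lowest in the first of these classes, with 82.1, 94, 74.3 and 90.8 CPM in Pi16 fibroblasts, 658, 768, 481 and 741 CPM in Adamdec1 fibroblasts and 513, 638, 730.5 and 1291 CPM in telocytes. Enteric glia reached 562, 769.6, 590.1 and 521 CPM of Col12a1 and the Hhip muscle cluster 503, 638, 475 and 589.9 CPM. Col16a1 was at 166, 188, 173 and 187 CPM in Pi16 fibroblasts and 121, 189.5, 109 and 199.9 CPM in Adamdec1 fibroblasts, and higher in enteric glia, at 232, 305, 483 and 564 CPM, in each library. Col8a1, a short-chain network collagen, was at 947, 799.6, 658 and 562 CPM in Pi16 fibroblasts, 268, 190.3, 348 and 311 CPM in Kcnn3 and Fibin fibroblasts and 24.9, 35.2, 17.1 and 25.2 CPM in Adamdec1 fibroblasts. Its partner chain Col8a2 was held in the Kcnn3 and Fibin subset among the tested classes, at 15.4, 12.3, 15.9 and 13.4 CPM, and in interstitial cells of Cajal, the pacemaker cells of the gut, at 23.2, 27.1 and 13 CPM in control 1, DSS 1 and DSS 2.

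The 6 type IV genes are arranged in the genome as 3 pairs that are read away from each other. On GRCm38, Col4a1 lies at chr8:11198423-11312826 on the minus strand and Col4a2 at chr8:11312805-11449287 on the plus strand, so that their first exons share 22 bases, shown because they are transcribed from both strands:
Col4a2 and Col4a1, chr8:11312805-11312826, plus strand: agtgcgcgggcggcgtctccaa
Col4a3 and Col4a4 start 72 bases apart on chromosome 1. Col4a5 and Col4a6 start 1309 bases apart on the X chromosome in the GENCODE annotation.

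Col4a1 and Col4a2 were the most widely held members, in 10 each when fibroblast subsets and the muscle clusters led by Hhip and Actg2 were counted as classes. Without those muscle clusters Col18a1 was held in the same classes as Col4a1 and Col4a2. Blood endothelial cells were highest in Col4a1, with 1842, 1874 and 1471 CPM in control 1, DSS 1 and DSS 2, above Adamdec1 fibroblasts at 1298, 1048, 1317 and 1111 CPM and the Hhip muscle cluster at 882, 1147, 1156 and 1024 CPM, which overlapped each other. Col4a2 was at 932, 1083 and 1021 CPM in control 1, DSS 1 and DSS 2 in blood endothelial cells and 627, 715, 580.3 and 687 CPM in Adamdec1 fibroblasts. The ratio of Col4a2 to Col4a1 was 0.336 to 0.415 in enteric glia and 0.638 to 0.922 in mural cells. The bases that Col4a1 and Col4a2 share lie in their first exons, away from the transcript ends that the kit counts. Whether reads in those bases were assigned by strand was not tested.

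Col4a5 and Col4a6, whose products join in the sheath of smooth muscle and under some epithelia, were both highest in telocytes. Col4a5 was at 909, 794, 487 and 542 CPM in telocytes, 145, 139, 167 and 159 CPM in mural cells and 55.5, 69.9, 98.1 and 60.6 CPM in Adamdec1 fibroblasts, an order that held in each library. Col4a6 was at 205, 243, 140.2 and 157 CPM in telocytes, 59.4, 62.6, 56.9 and 70.9 CPM in mural cells and 12.1, 20.2, 19.7 and 19.2 CPM in Adamdec1 fibroblasts. Telocytes, 662 of 42449 kept cells, held 30.4% to 45.1% of all Col4a5 UMIs and 31.0% to 50.7% of all Col4a6 UMIs. The ratio of Col4a6 to Col4a5 was 0.225 to 0.305 in telocytes and 0.341 to 0.450 in mural cells. The 250 bases before each RefSeq start (GRCm38.p6) are shown because this pair shared its 2 leading classes, with the letters of CCAAT and GGGCGG, on either strand, in capitals:
Col4a5, chrX:141475169-141475418, plus strand: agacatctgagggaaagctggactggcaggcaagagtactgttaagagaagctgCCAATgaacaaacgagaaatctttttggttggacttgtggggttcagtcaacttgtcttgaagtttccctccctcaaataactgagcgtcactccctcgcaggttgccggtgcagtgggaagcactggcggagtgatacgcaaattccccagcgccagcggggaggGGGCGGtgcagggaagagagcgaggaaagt
Col4a6, chrX:141474077-141474326, minus strand: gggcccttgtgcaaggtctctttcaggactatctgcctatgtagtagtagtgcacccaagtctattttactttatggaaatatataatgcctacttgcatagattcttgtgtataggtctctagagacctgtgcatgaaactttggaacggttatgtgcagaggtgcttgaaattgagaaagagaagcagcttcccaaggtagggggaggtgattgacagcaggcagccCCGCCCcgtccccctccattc
GGGCGG occurred once before each start and CCAAT once before Col4a5. Over all 32851 RefSeq promoters, 32.7% held GGGCGG and 33.8% held CCAAT within the same 250 bases. For the 32 collagen genes, 27 had an entry, of which 18 held GGGCGG, 11 held CCAAT and 3 held TATAAA, against 12.4% of all promoters for the last.

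Col4a3 and Col4a4, the chains of the kidney filter membrane, were scarce. Col4a4 was held in enteric glia, at 40.1, 50.8, 83.3 and 65.6 CPM. Interstitial cells of Cajal held both, with Col4a3 at 14.6, 20.6 and 56.4 CPM in control 1, DSS 1 and DSS 2 and Col4a4 at 12.2, 10.5 and 21.7 CPM in control 1, DSS 1 and DSS 2. In fibroblasts the 2 genes stayed under 10 CPM in every library.

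Col15a1 and Col18a1, the multiplexin genes of basement membranes, were held in overlapping classes. Each tested class that held Col15a1 also held Col18a1, while mural cells and smooth muscle as a whole held Col18a1 only. Shares of cells with a UMI were compared after thinning to 1500 UMIs per cell. For Col15a1 they were 70.1%, 65.3%, 57.5% and 38.2% in Adamdec1 fibroblasts and 22.4%, 35.5%, 17% and 21.8% in enteric glia. For Col18a1 they were 21.6%, 20.3%, 23% and 28.3% and 64.5%, 80.6%, 71.7% and 78.2%. Col15a1 was at 900.1, 793, 593 and 363 CPM in Adamdec1 fibroblasts, 533, 501 and 538 CPM in control 1, DSS 1 and DSS 2 in blood endothelial cells and 99.9, 124, 73.6 and 72.2 CPM in Pi16 fibroblasts. Col18a1 was at 744, 973, 899 and 911 CPM in enteric glia, 217, 206, 232 and 156 CPM in mural cells and 247, 156 and 204 CPM in control 1, DSS 1 and DSS 2 in lymphatic endothelial cells. In telocytes it stood at 159, 191, 831 and 944 CPM, near the mural level in control and near the glial level in DSS.

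Enteric glia, the supporting cells of the gut's nervous system, carried several minor collagens. Col11a1, which encodes a minor fibrillar chain, was at 108, 232, 83.3 and 69.5 CPM in glia and was held in no other class. Glia contained 81.4% to 100% of its UMIs, of which there were 139 in all. Col28a1, a chain known in nerve sheaths, was at 161, 407, 283 and 151 CPM in glia and 21.7, 29.5, 39 and 34.8 CPM in Adamdec1 fibroblasts. Col27a1, a fibrillar collagen of cartilage, was at 164, 247, 171 and 251 CPM in glia and 117, 217, 158 and 209 CPM in telocytes. Interstitial cells of Cajal were near the glial level of Col27a1, with 129, 156 and 247 CPM in control 1, DSS 1 and DSS 2.

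The membrane-spanning collagens were found in small classes. Col23a1 was highest in an unnamed cluster led by Cckar and Pcp4, with 1017, 1091 and 848 CPM in control 1, DSS 1 and DSS 2, and it reached 164, 250.5 and 269 CPM in control 1, DSS 1 and DSS 2 in lymphatic endothelial cells. Col13a1 was at 134, 122 and 121 CPM in control 1, DSS 1 and DSS 2 in blood endothelial cells and 35.4, 87.5 and 43.4 CPM in control 1, DSS 1 and DSS 2 in interstitial cells of Cajal. Col25a1 was at 43, 37.3 and 85.4 CPM in control 1, DSS 1 and DSS 2 in enteric neurons, from 13 UMIs or more in each of these libraries. Col17a1, the hemidesmosome collagen of skin, had 74 UMIs in all kept cells and was held nowhere. Also held nowhere were Col6a6 with 10 UMIs, Col7a1, the anchoring-fibril collagen, with 246, and Col9a2 with 56, so that absence from a class cannot be read from them at this depth. Col9a2 was at 58.7 and 131 CPM in the enteric glia of control 1 and control 2, and missed the rule there through DSS 1, at 2.38 CPM.

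The design asks which collagen genes differ after 2 days of DSS. UMIs were summed per library and class and tested in 21 overlapping classes and subsets, and a pair of gene and class passed at an adjusted p under 0.05. Libraries were not paired by replicate number. Of 367 pairs, edgeR's quasi-likelihood test passed 0, with 30 at an unadjusted p under 0.05 and a smallest adjusted p of 0.0789, and DESeq2 passed 2, in telocytes (1.73% of all genes passed there) and goblet cells (3.34%). In the 10 stromal classes and subsets 0 of 214 pairs passed and 18 had an unadjusted p under 0.05. Among all genes edgeR passed 0 of 14647 (0%) in fibroblasts, 0 of 5165 (0%) in enteric glia, 0 of 13152 (0%) in goblet cells, 0 of 10554 (0%) in mural cells, 2 of 8958 (0.0223%) in telocytes and 2 of 7747 (0.0258%) in the Hhip muscle cluster. It passed 5.68% of genes in absorptive colonocytes, 1.37% in epithelial progenitors, 0.0113% in all epithelial cells together, 0.0131% in innate lymphoid or NK cells and 0.00965% in plasma cells, and 0% in the other tested classes. Counts for fibroblasts were also simulated, with the same estimated spread for every gene. There the same test recovered 62.5% of genes changed by 2 on the log2 scale and 96.2% of those changed by 3 (14647 genes). For enteric glia it recovered 53.3% and 88.2% (5165 genes). Spread that differs between genes was not simulated, so these shares do not tell how often real changes of that size were missed.

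**Figure D2:**
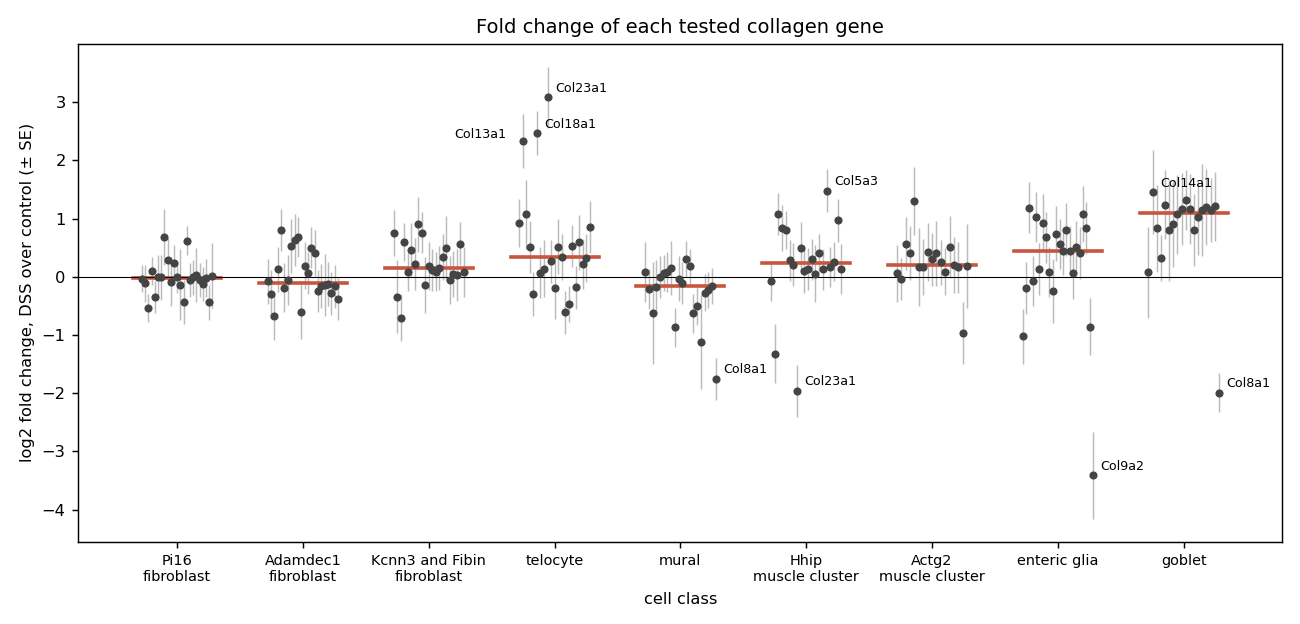
Log2 fold change of DSS over control (vertical axis) for each tested collagen gene in 9 cell classes (horizontal axis), with bars of 1 SE from the edgeR fit and a red line at the median of the genes. Most genes of the fibroblast subsets lie within 1 of zero, while Col18a1, Col13a1 and Col23a1 in telocytes lie above 2 and Col9a2 in enteric glia lies below -3.

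In fibroblasts as a whole the main fibrillar genes had fold changes near 0, with an SE of about 0.35 on the log2 scale. Col1a1 was at 2567, 3769, 3246 and 2756 CPM (log2 fold change 0.06, SE 0.36, edgeR adjusted p = 1). Col1a2 was at 4544, 5836, 5196 and 4868 CPM (log2 fold change 0.09, SE 0.35, edgeR adjusted p = 1), and Col3a1 at 9593, 8295, 7817 and 8000 CPM (log2 fold change -0.05, SE 0.35, edgeR adjusted p = 1). Control and DSS libraries overlapped for Col1a1 and Col1a2, and both DSS libraries lay below both controls for Col3a1. The sign of the Col1a1 and Col1a2 values turned negative (-0.08 and -0.04) when library totals were used without TMM scaling. The median over the 28 collagen genes tested in fibroblasts was 0.09 on the log2 scale, against 0.02 over all genes, and it was -0.04 with library totals, against -0.11 over all genes.

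Both DSS libraries lay below both controls for 6 of the 28 genes in fibroblasts (Col3a1, Col4a4, Col6a1, Col6a2, Col12a1 and Col15a1), where 20.4% of all tested genes did so. They lay above for 3 of 28 (Col7a1, Col17a1 and Col27a1), where 5.53% of all genes did. Col15a1 had the lowest fold change in fibroblasts, at 273, 246, 190.2 and 84.9 CPM (log2 fold change -0.78, SE 0.43, edgeR adjusted p = 1). The same gene was at 900.1, 793, 593 and 363 CPM in Adamdec1 fibroblasts (log2 fold change -0.67, SE 0.41, edgeR adjusted p = 1), so both DSS libraries were lower within that subset as well. In fibroblasts as a whole the Col15a1 value was -1.49 without DSS 1 and -0.31 without DSS 2, and in the Adamdec1 subset it was -1.14 and -0.32. The inflamed fibroblasts, which had 29.4 to 57.3 CPM of Col15a1 in the 3 libraries with 30 or more of them, made up 2227 of the 3850 fibroblasts of DSS 2.

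Within the Pi16 subset both DSS libraries lay below both controls for 6 of 23 tested genes (20.2% of all genes) and above for 2 (8.49%). In Adamdec1 fibroblasts they lay below for 6 of 22 (24.2%) and above for 3 (7.75%). The 6 in Adamdec1 fibroblasts were Col3a1, Col5a1, Col5a2, Col6a1, Col6a2 and Col15a1, and those in Pi16 fibroblasts shared Col6a1, Col6a2 and Col15a1 with them. In Kcnn3 and Fibin fibroblasts they lay below for 0 (12.9%) and above for 4 (10.1%). Medians over the tested collagen genes were -0.02 in Pi16, -0.10 in Adamdec1 and 0.15 in Kcnn3 and Fibin fibroblasts.

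**Figure D3:**
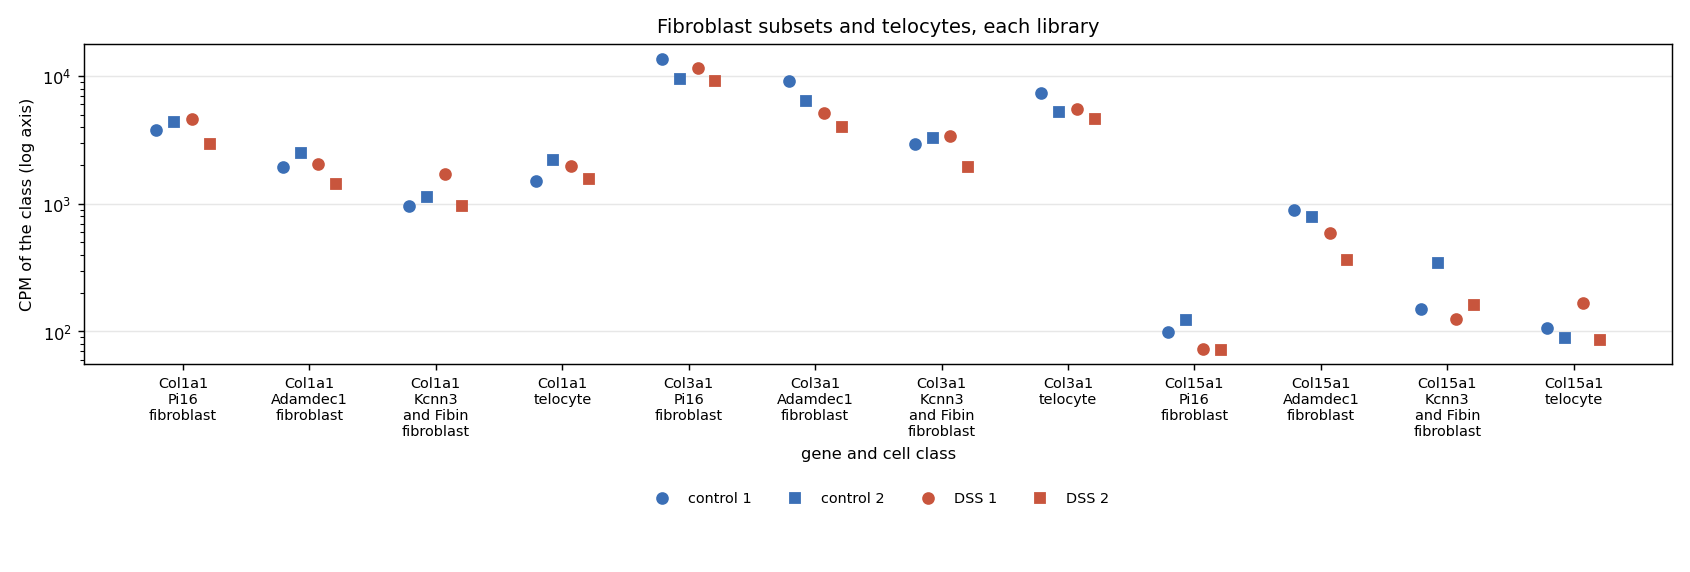
CPM on a log axis (vertical) of Col1a1, Col3a1 and Col15a1 in 3 fibroblast subsets and telocytes (horizontal), with 1 point per library, blue for control and red for DSS. Col1a1 overlaps between control and DSS in all 4 classes, and Col15a1 is lower in both DSS libraries of Adamdec1 fibroblasts.

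Telocytes showed the highest fold changes of collagen genes among the stromal classes. Col18a1 was at 159, 191, 831 and 944 CPM, from 49, 66, 1245 and 1325 UMIs, so that each DSS library was more than 4-fold above each control library. Its log2 fold change was 2.47 (SE 0.38, edgeR adjusted p = 0.127). With DESeq2 the same pair passed (2.44, adjusted p = 1.29e-05). The edgeR log2 fold change was 2.37 without control 1 and 2.55 without control 2, and the values without DSS 1 or DSS 2 are not given. The share of telocytes with a Col18a1 UMI was 30.8% and 41.2% in control and 80.2% and 75.4% in DSS. After each cell had been thinned to 1500 UMIs, which left out 6, 15, 8 and 13 cells, it was 14.1%, 23.1%, 58.4% and 57.8%. In T cells of the same libraries the unthinned share was 0.741%, 0.558%, 1.94% and 0.937%. Median depths per cell were 3345, 3803, 6135 and 4517 UMIs in telocytes and 2610, 1452, 3274 and 2421 in T cells.

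The difference in the Col18a1 response between telocytes and fibroblasts was tested by itself, with the library as a block. Fibroblasts had 71, 84.3, 77.3 and 73.9 CPM. The log2 fold change was 2.48 higher in telocytes (SE 0.28, edgeR adjusted p = 0.00431). Of 26 collagen genes tested in this pair, 1 passed, where 10 of 13932 genes passed (0.0718%). This pair of classes was added after the levels had been seen, and without control 2 the test no longer passed (2.42, adjusted p = 0.0510). For smooth muscle 0 of 14267 genes passed against fibroblasts (496 at an unadjusted p under 0.05), and for mural cells 0 of 13945 (377). For enteric glia 39 of 13910 genes (0.280%) passed, none of them among 26 collagen genes.

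Markers of other cells moved within the telocyte cluster. The 9 smooth muscle markers summed to 1903 and 2316 CPM in control and 402 and 639 CPM in DSS, with 2 of the 9 at 0 in control 2 alone. The 9 telocyte markers summed to 2990, 2931, 3803 and 4284 CPM. Plasma cell markers, 7 genes, summed to 373, 2319, 7671 and 5384 CPM. Of the 9 markers of enteric glia, a class high in Col18a1, 8 were at 0 in each library of telocytes. In telocytes with 1 or more muscle marker UMIs Col18a1 was at 148 and 150.1 CPM in control and 867 and 1014 in DSS. In those with 0 muscle marker UMIs it was at 228 and 501 CPM in control, from 10 and 20 UMIs, and 685 and 721 in DSS. The part of the muscle and plasma cell markers in the Col18a1 difference was not tested. Slc19a1, which overlaps Col18a1 by 8825 bases on the other strand, had 3, 5, 7 and 8 UMIs in telocytes.

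Col18a1 lies at chr10:77052178-77166548 on the minus strand of GRCm38, and RefSeq lists 2 starts that are 52825 bases apart. The counts of 3-prime ends do not tell them apart. The 250 bases before each (GRCm38.p6) are shown because Col18a1 had the smallest adjusted p of the collagen genes in the stromal classes, with CCAAT and GGGCGG on either strand in capitals:
Col18a1, first start, chr10:77166531-77166780, minus strand: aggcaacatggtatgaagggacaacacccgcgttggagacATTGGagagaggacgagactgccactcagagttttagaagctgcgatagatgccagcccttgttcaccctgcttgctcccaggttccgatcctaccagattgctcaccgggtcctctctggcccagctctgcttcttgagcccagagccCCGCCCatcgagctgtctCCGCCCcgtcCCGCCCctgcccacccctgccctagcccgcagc
Col18a1, second start, chr10:77113706-77113955, minus strand: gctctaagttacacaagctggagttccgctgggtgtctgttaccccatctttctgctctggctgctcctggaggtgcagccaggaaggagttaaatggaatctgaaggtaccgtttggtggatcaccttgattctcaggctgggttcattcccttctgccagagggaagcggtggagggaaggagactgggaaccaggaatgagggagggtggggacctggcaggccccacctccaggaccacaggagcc
The first holds CCAAT once and GGGCGG 3 times, and the second holds none of the 3 motifs searched.

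Genes of 2 membrane-spanning collagens were higher in both DSS libraries of telocytes and did not pass edgeR. Col23a1 was at 9.74, 5.78, 46.7 and 74.8 CPM, from 3, 2, 70 and 105 UMIs (log2 fold change 3.08, SE 0.53, edgeR adjusted p = 0.156). Col13a1 was at 9.74, 11.6, 52.1 and 47 CPM, from 3, 4, 78 and 66 UMIs (log2 fold change 2.33, SE 0.46, edgeR adjusted p = 0.181). Both DSS libraries lay above both controls for each, and the control values rest on 4 UMIs or fewer. The edgeR log2 fold change of Col23a1 was 3.51 without control 1 and 3.29 without DSS 1, and the values without control 2 or DSS 2 are not given. In telocytes with 0 muscle marker UMIs, Col13a1 was at 45.7 and 50.1 CPM in control, from 2 UMIs each, and 71.6 and 32.5 in DSS, so that the groups overlapped there. The 250 bases before their starts (GRCm38.p6) are shown beside those of Col18a1, with TATAAA and GGGCGG on either strand in capitals:
Col13a1, chr10:61979109-61979358, minus strand: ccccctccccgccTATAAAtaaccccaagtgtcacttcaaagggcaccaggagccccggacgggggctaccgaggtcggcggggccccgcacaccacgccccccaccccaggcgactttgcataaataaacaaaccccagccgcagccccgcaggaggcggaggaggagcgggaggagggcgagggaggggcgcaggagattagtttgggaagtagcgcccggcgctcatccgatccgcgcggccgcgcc
Col23a1, chr11:51289670-51289919, plus strand: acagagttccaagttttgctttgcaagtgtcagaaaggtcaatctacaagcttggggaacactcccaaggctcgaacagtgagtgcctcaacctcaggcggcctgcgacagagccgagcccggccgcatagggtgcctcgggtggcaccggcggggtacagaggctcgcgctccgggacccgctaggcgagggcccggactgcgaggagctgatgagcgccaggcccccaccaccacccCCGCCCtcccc
Col13a1 holds TATAAA once and no CCAAT or GGGCGG, and Col23a1 holds GGGCGG once and neither of the others.

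In the other direction, Col4a5 (log2 fold change -0.61, SE 0.37, edgeR adjusted p = 0.835) and Col4a6 (log2 fold change -0.46, SE 0.31, edgeR adjusted p = 0.866) were lower in both DSS libraries of telocytes than in both controls, at the CPM given above, and neither passed. In telocytes with 0 muscle marker UMIs the groups overlapped for Col4a5, at 867.5 and 576 CPM in control and 453 and 644 in DSS. For Col4a6 the same cells had 228 and 275 CPM in control, from 10 and 11 UMIs, and 139.7 and 174 in DSS, which did not overlap. Of the 21 collagen genes tested in telocytes, both DSS libraries lay above both controls for 7 (Col5a1, Col6a3, Col12a1, Col13a1, Col14a1, Col18a1 and Col23a1), where 13.5% of all genes did so, and below for 2, where 23.3% did. The median over the 21 genes was 0.34 on the log2 scale against 0.00 over all genes. With library totals in place of TMM it was 0.19 against -0.13.

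**Figure D4:**
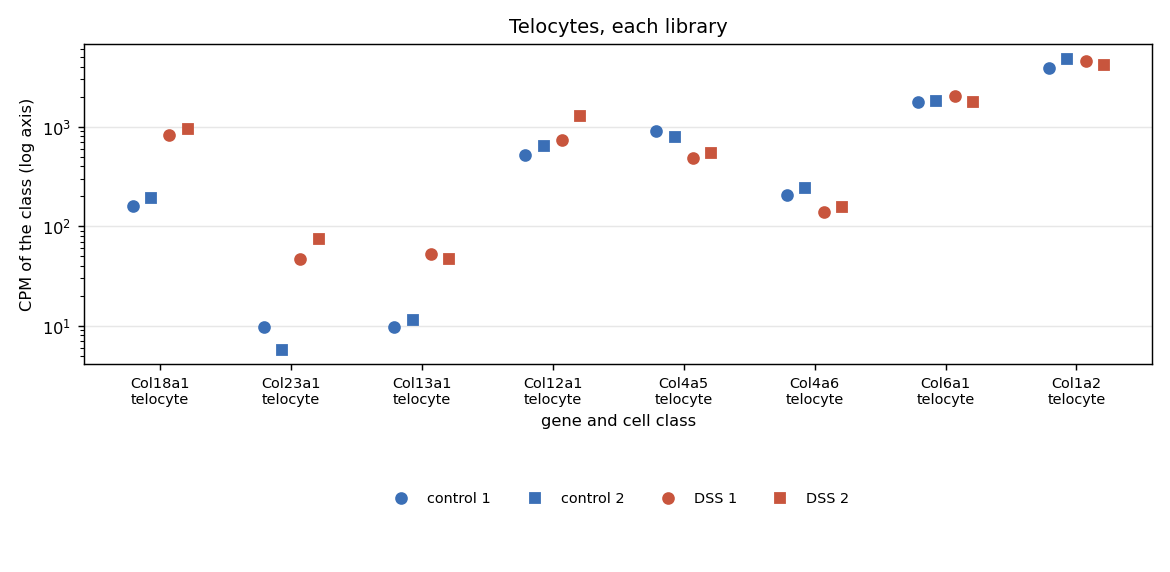
CPM on a log axis (vertical) of 8 collagen genes in telocytes (horizontal), with 1 point per library, blue for control and red for DSS. Col18a1 lies at 159 and 191 CPM in control and 831 and 944 in DSS, while Col1a2 overlaps between the groups.

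Col8a1 was the collagen gene with the lowest fold change in goblet cells, the mucus-secreting cells of the epithelium. It was at 116, 100, 16.5 and 35 CPM, from 2794, 857, 148 and 338 UMIs, and both DSS libraries lay below both controls (log2 fold change -1.99, SE 0.33, edgeR adjusted p = 0.117). DESeq2 passed it (-1.99, adjusted p = 1.8e-05). Without DSS 2 the edgeR log2 fold change was -2.43, and the values with another library left out are not given. Lymphocytes had 8.46, 8.12, 12.1 and 10.8 CPM. The ratio of Col8a1 to Col1a2 UMIs in goblet cells was 15 and 1.64 in control and 0.329 and 0.610 in DSS, against 0.0858 to 0.125 in fibroblasts. When goblet cells were split at a finer clustering, 1 cluster had 60.9, 60.7, 13.7 and 25.6 CPM and the other 177, 108, 39.4 and 40 CPM, so the DSS libraries were lower in both. The other 17 collagen genes tested in goblet cells had a positive fold change, where both DSS libraries lay above both controls for 8 (12.4% of all genes) and below for Col8a1 alone (27.6%), and the median over all 18 was 1.10 against 0.00 over all genes (0.91 against -0.14 with library totals). All 32 collagen genes together, Col8a1 included, made up 0.0169%, 0.0381%, 0.0298% and 0.0321% of goblet cell UMIs. In lymphocytes they made up 0.0471%, 0.0293%, 0.0798% and 0.0498%. The 9 fibroblast markers summed to 197, 503, 577 and 666 CPM in goblet cells. The part of these markers and of free RNA in those 17 values was not tested.

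Col8a1 was lower in both DSS libraries of some other classes too, while the groups overlapped in Adamdec1 fibroblasts and in fibroblasts as a whole. Mural cells had 30.1, 30.5, 7.11 and 9.60 CPM, from 40, 59, 21 and 18 UMIs (log2 fold change -1.75, SE 0.36, edgeR adjusted p = 1). Enteric glia had 71, 50.8, 38.1 and 27 CPM, the muscle cluster led by Actg2 104, 65.8, 59.4 and 19.8 CPM and Pi16 fibroblasts 947, 799.6, 658 and 562 CPM, while Kcnn3 and Fibin fibroblasts were higher in both DSS libraries, at 268, 190.3, 348 and 311 CPM. The class of other epithelial cells also had higher values in both DSS libraries, at 1.49, 2.04, 2.16 and 2.55 CPM, below the lymphocyte level given above in every library. Both mural DSS values also lay below the lymphocyte level of the same library, and Col8a1 was held in neither class. Of the 20 collagen genes tested in mural cells, 7 were lower in both DSS libraries (14.6% of all genes) and 1, Col4a5, was higher in both (5.84%). The median was -0.16 against 0.01 over all genes. The 9 fibroblast markers summed to 1183, 849, 640 and 1128 CPM in mural cells, and their part in these values was not tested.

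**Figure D5:**
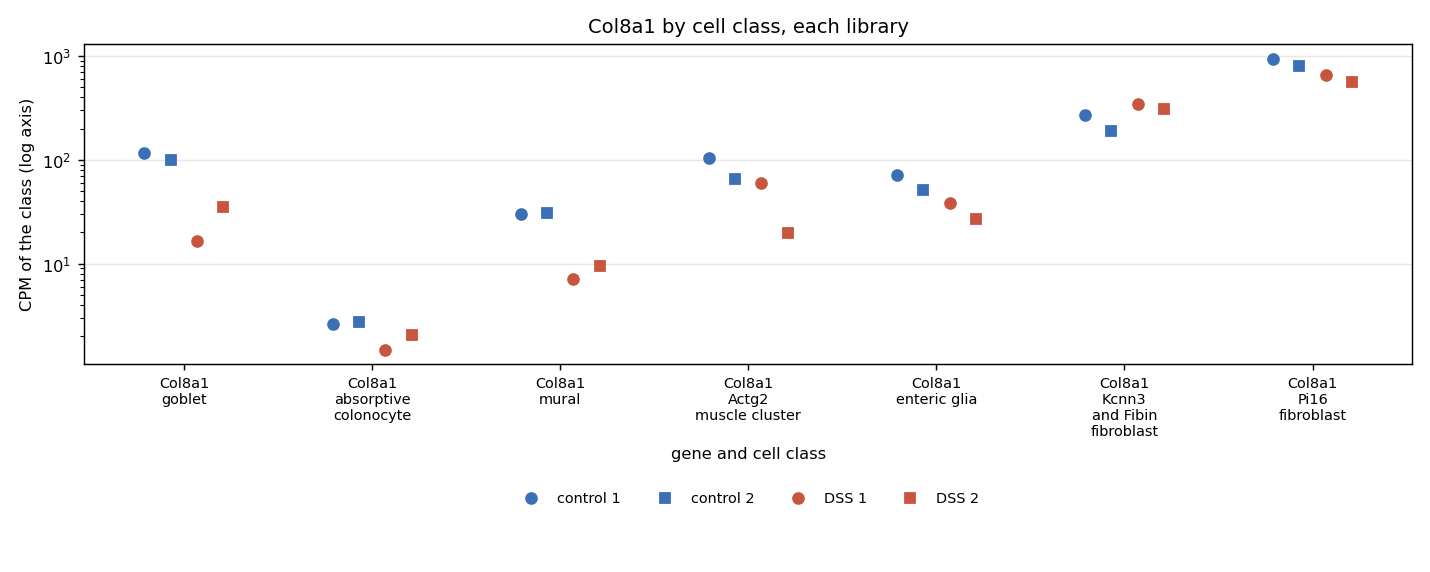
CPM of Col8a1 on a log axis (vertical) in 7 cell classes (horizontal), with 1 point per library, blue for control and red for DSS. Both DSS points lie below both control points in 6 of the classes and above them in Kcnn3 and Fibin fibroblasts. Classes in which the groups overlapped, such as Adamdec1 fibroblasts and fibroblasts as a whole, are not shown.

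In the muscle cluster led by Hhip, a marker of myofibroblast-like smooth muscle, 2 collagen genes stood apart. Col23a1 was at 80.8, 152, 37.7 and 18 CPM, from 22, 90, 56 and 12 UMIs, with both DSS libraries lower (log2 fold change -1.96, SE 0.44, edgeR adjusted p = 0.429). Its edgeR log2 fold change was -2.26 without control 1 and -2.75 without DSS 1, and the values without control 2 or DSS 2 are not given. Col5a3 was at 22.1, 32.1, 76.2 and 78 CPM, with both DSS libraries higher (log2 fold change 1.48, SE 0.37, edgeR adjusted p = 0.554). Of the 20 collagen genes tested in this cluster, 9 were higher in both DSS libraries, where 12.7% of all genes were, and 2 were lower in both, where 17% were. The 9 were Col1a1, Col3a1, Col5a1, Col5a3, Col6a2, Col6a3, Col15a1, Col16a1 and Col18a1, and the median over the 20 was 0.23 against 0.00 over all genes.

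In enteric glia 12 of 22 collagen genes were higher in both DSS libraries (12.2% of all genes) and 3 were lower in both (14.8%), and none passed. The 12 included Col1a1, at 139, 341, 371 and 494 CPM, Col16a1, at 232, 305, 483 and 564 CPM, and Col4a1, at 334, 385, 512 and 517 CPM. The 3 that were lower were Col8a1, Col11a1 and Col9a2. Col9a2, a chain of the cartilage type IX collagen, was at 58.7, 131, 2.38 and 15.4 CPM, from 19, 18, 1 and 4 UMIs (log2 fold change -3.41, SE 0.75, edgeR adjusted p = 0.717). Without DSS 2 its log2 fold change was -4.85, and the values with another library left out are not given. In the glial cluster the 9 fibroblast markers summed to 2977, 5598, 3926 and 6213 CPM and the 9 goblet markers to 6798, 886, 509 and 274 CPM. The 5 erythroid markers summed to 10080 CPM in control 1 and 42.8 CPM in DSS 1, and all 5 were at 0 in the other libraries. Their part in the glial values was not tested.

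The genes that fold, cut, cross-link and bind collagen were read from lists in the 10 stromal classes, and no gene of any list passed edgeR in any of them. In fibroblasts the list medians were 0.05 to 0.29 on the log2 scale against 0.02 over all genes. The chaperone gene Serpinh1 was at 1214, 1140, 1019 and 1187 CPM and the lysyl hydroxylase gene Plod2 at 341, 484, 504 and 486 CPM in fibroblasts. Pcolce and Pcolce2, enhancers of procollagen cleavage, were at 515, 459, 432 and 474 CPM and at 273, 467, 246 and 473 CPM. The collagen receptor genes Itgb1 and Ddr2 were at 538, 557, 620 and 523 CPM and at 221, 415, 276 and 373 CPM. Sparc, which binds collagen, was at 8151, 7430, 6634 and 6157 CPM and the basement membrane linker Nid1 at 746, 880, 831 and 1026 CPM. The proteoglycan genes Dcn and Bgn were at 13630, 14920, 13270 and 14640 CPM and at 2364, 1988, 2243 and 1876 CPM. Timp2 and Timp3, inhibitors of metalloproteinases, were at 1150, 1389, 1306 and 1568 CPM and at 402, 691, 258 and 516 CPM. Tgfbr2, a TGF-beta receptor, was at 381, 420, 345 and 386 CPM and its pathway's target Ccn2 at 240, 455, 255 and 248 CPM. Of these 14 genes, control and DSS libraries overlapped for 12, while Plod2 was higher and Sparc lower in both DSS libraries, where 5.53% of all fibroblast genes were higher and 20.4% lower.

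In telocytes 2 lists had medians further from that of all genes. The genes named for telocytes were chosen after their values had been seen, except Serpinh1. Of the 10 leucine-rich proteoglycan genes on the list, the 8 tested had a median of -1.52 against 0.00 over all genes. Of these 8, 5 (Aspn, Lum, Ogn, Omd and Prelp) were lower in both DSS libraries, where 23.3% of all genes were. The metalloproteinases and inhibitors had a median of 1.05, with Mmp2, Mmp10, Mmp13, Mmp14 and Timp3 of 8 tested higher in both DSS libraries, where 13.5% of all genes were. Timp2 was lower in both by CPM, at 653, 656, 566 and 633 CPM, with a TMM-scaled log2 fold change of -0.0. Of the 18 hydroxylase and chaperone genes tested, 7 were higher and 1 lower in both, against the same 13.5% and 23.3%, with a median of 0.21, and Serpinh1 was at 994, 895, 1485 and 1372 CPM. The difference between the classes in a list median was not tested.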

How the data were processed

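The authors deposited 1 matrix of UMI counts per gene and cell for each library, made with Cell Ranger 6.1.1 and GRCm38, per the submitters' processing notes. Kept cells had at least 500 UMIs, 250 genes and at most 25% mitochondrial UMIs, and predicted doublets (2.92% to 5.38%) were removed. Cells were clustered with scanpy 1.11.5 at resolution 1 on 2000 variable genes, with collagen genes left out, and named from at least 3 markers. A mural name also needed Notch3, and fibroblast subsets were taken from the clusters of all cells because a second clustering split mostly by library, both decided after the data had been seen.

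UMIs were summed per library and class and tested with edgeR 4.0.16 (TMM, filterByExpr, quasi-likelihood test, Benjamini-Hochberg adjustment within a class), with DESeq2 1.42.0 as an alternative. The test was tested on simulated data with the same spread for every gene. The difference in response between classes was an interaction term with a library block. Class levels are descriptions with no test. All 32 collagen genes are named, and of each gene list the 2 genes highest in fibroblasts and any that passed. The members and lists were chosen with earlier results of these data known. Total depth was 101051573 to 109472082 UMIs per library, and a count of 3 UMIs was taken as the floor.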

Additional observations from a re-analysis of the deposited data

Results flagged for a closer look

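The response of Col18a1 to DSS differed between telocytes and fibroblasts by 2.48 on the log2 scale (edgeR interaction term, adjusted p = 0.00431). Both DSS libraries lay above both controls in telocytes, while the groups overlapped in fibroblasts. The adjusted p was 0.0510 without control 2.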

How the results depend on the processing

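With 2 libraries a group, counts of calls moved with the setting. The count of gene and class pairs that passed, 0 of 367, became 2 with DESeq2 (Col8a1 in goblet cells and Col18a1 in telocytes) and 16 without a filter on low counts. It also changed when 1 library was left out. It stayed at 0 with library totals, with doublets kept, with at most 15% mitochondrial UMIs, at resolution 2 and with collagen genes used for clustering. Without the filter, 1183 of 25105 genes passed in goblet cells and 93 of 19034 in telocytes. Of all genes, 52 of 18268 passed in the Hhip muscle cluster, 54 of 16984 in enteric glia and 297 of 19743 in dendritic cells. In all epithelial cells together 476 of 30554 passed. The 16 pairs lay in these classes. The labels do not say that replicate numbers pair the libraries. Over genes, the deviations of same-numbered libraries from their group means had a correlation of 0.554 in fibroblasts, 0.508 in mural cells and 0.329 in telocytes. In other epithelial cells it was -0.089, the only negative value among the tested classes. With 2 pairs the pairing could not be settled. With the replicate number as a block 11 pairs passed, which were Col13a1, Col18a1 and Col23a1 in telocytes (3.23% of all genes passed there), Col8a1 in goblet cells (5.85%), Col8a1 in mural cells (0.644%), Col5a3 (1.49, adjusted p = 0.0217) and Col23a1 (-1.98, adjusted p = 3.31e-05) in the Hhip muscle cluster (1.02%), Col9a2 in enteric glia (-3.47, adjusted p = 0.034, 0.232%), Col7a1 in absorptive colonocytes (22.7%), and Col14a1 in dendritic cells (2.88%) and in monocytes or macrophages (1.53%). In fibroblasts the fold change of Col1a1 turned to -0.08 and that of Col1a2 to -0.04 with library totals. When 1 library was left out, Col1a1 ranged from -0.23 (without control 1) to 0.33, with -0.07 without DSS 1, Col1a2 from -0.11 (without control 1) to 0.25, and Col3a1 from -0.17 to 0.03 (without control 1). Against fibroblasts, the collagen genes that differed in response numbered 0 to 2 for smooth muscle and 0 to 2 for telocytes when 1 library was left out. Without the filter they numbered 1 for smooth muscle, 1 for mural cells and 5 for telocytes. The Col18a1 difference ranged from 2.42 to 2.53 when 1 library was left out and lost its call without control 2 (adjusted p = 0.0510). The causes were not tested. For Col18a1 and Col23a1 in telocytes and Col8a1 in goblet cells, only fold changes of leave-outs in which the pair passed are given above. The same holds for Col23a1 in the Hhip muscle cluster and Col9a2 in enteric glia, so these values do not show the full range. For the single gene and class pairs, 144 values kept direction and side of the threshold, 24 gained a call, 6 turned sign and 2 had no adjusted p in DESeq2. Small classes limit what could be seen, since 3 UMIs corresponded to 7.14 to 21.8 CPM in enteric glia.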

Other observations

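The files listed 12 further collagen chains, all at low counts in kept cells. Col6a4 had 723 UMIs over the 4 libraries, Col6a5 had 565, Col20a1 had 534, Col24a1 had 290 and Col11a2 had 223. Col19a1 had 127 UMIs, Col9a1 had 95 and Col9a3 had 85, while Col22a1, Col26a1, Col10a1 and Col2a1, the chain of cartilage, had 42, 24, 16 and 4.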
